A study of Rattus norvegicus with 4 samples.

Results

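The 8 genes described here encode receptors for the neurotrophins and for the ligands of the GDNF family, and they were taken by symbol from the protein-coding rows of the deposited count table. Each of Ntrk2, Ntrk3, Ngfr, Ret, Gfra1, Gfra2, Gfra3 and Sort1 had 1 such row, so that 8 of 22293 protein-coding genes were followed, and all 8 were among the 14719 kept by the filter on low counts. They were measured by RNA sequencing in lumbar dorsal root ganglia (DRGs) of wild-type neonatal Wistar rats, which had received intraperitoneal vehicle (PBS) or cisplatin, a platinum-based chemotherapeutic, at 0.3 mg/kg on postnatal days 14 and 16. There were 2 libraries per group, each made from 2 to 5 pooled DRGs. The study's methods place collection at postnatal day 23, and the sample labels state 16 days after treatment. Rats of both sexes were used in the study, and the sex behind each library is not given in the sources used here.

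Neurotrophins are secreted proteins that keep sensory neurons alive and shape their endings. They act through Trk receptor tyrosine kinases and through the p75 neurotrophin receptor. Ligands of the GDNF family first bind a lipid-anchored GFR-alpha co-receptor, and the complex then activates the tyrosine kinase Ret. Subtypes of sensory neuron carry different receptors, which makes these genes landmarks of neuronal identity in the ganglion, while glia carry some of them as well.

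None of the 8 receptor genes was called different between cisplatin-treated and vehicle-treated rats. Calls required a fold change of at least 1.5 and, in edgeR's quasi-likelihood test, a p under 0.05 after Benjamini-Hochberg adjustment. In all genes tested this rule called 1 of 14719, which is 0.00679%, so a count of 0 among 8 is no result about the receptors. At an unadjusted p under 0.05 the test held 1388 genes (9.43%) and again none of the 8, and DESeq2 called none of the 8 where it called 126 of 18025 genes (0.699%). An edgeR fit with the replicate number as a block called 3.36% of all genes higher and 7.05% lower, and none of the 8. The fitted log2 fold change was above 0 in 6 of 8 receptors, beside 49.1% of all genes tested, with a median of 0.096 beside -0.0091 over all genes. Gfra2 was the only receptor whose cisplatin-treated libraries both lay above both vehicle-treated libraries, an arrangement found in 20.6% of genes tested. Sort1 was the only one for which both lay below, an arrangement found in 21.2%.

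**Figure D1:**
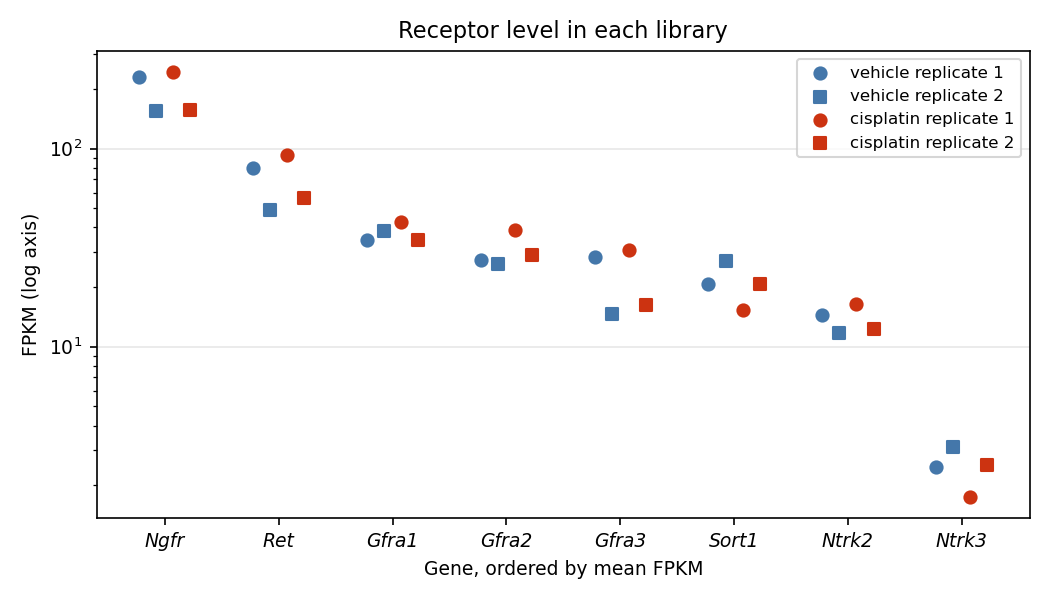
Level of each of the 8 receptor genes in the 4 libraries, as deposited FPKM on a log axis, with genes ordered by their mean over the libraries; circles are replicate 1 and squares replicate 2, blue is vehicle and red is cisplatin. Ngfr is highest at 155 to 244 FPKM and Ntrk3 lowest at 1.75 to 3.11 FPKM, and the colours overlap for 6 of the 8 genes.

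The receptors spanned a wide range of levels. Levels are given as FPKM, a count scaled by exonic length and by library, so that genes can be compared with each other. Ngfr was highest, with a mean of 197 FPKM over the 4 libraries, above 97.3% of the genes tested. Ret followed at 69.4 FPKM. Next came the GFR-alpha co-receptors, Gfra1 at 37.6 FPKM, Gfra2 at 30.3 FPKM and Gfra3 at 22.5 FPKM. Sort1 at 20.99 FPKM and Ntrk2 at 13.8 FPKM were lower, and Ntrk3 at 2.47 FPKM was lowest, above only 27.2% of the genes tested. Ngfr, Ret and Gfra1 held the first 3 places in every library and Ntrk3 the last. The ranges over the 4 libraries did not overlap between Ngfr and Ret, between Ret and Gfra1, or between Ntrk2 and Ntrk3. They overlapped between Gfra1 and Gfra2, between Gfra2 and Gfra3, between Gfra3 and Sort1, and between Sort1 and Ntrk2, so the order of these neighbours is not separated from the spread.

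The libraries held different amounts of neuronal and Schwann cell RNA, and this has to be set beside every receptor value. All listed neuron and Schwann cell markers were detected in the ganglia. The 12 neuron markers took 3.58% of all counts in vehicle replicate 1, 2.36% in vehicle replicate 2, 4.16% in cisplatin replicate 1 and 2.71% in cisplatin replicate 2. The 10 markers of myelinating Schwann cells took 6.70%, 14.6%, 4.89% and 12.7% in the same order. Replicate 2 of each group was therefore the library with more Schwann cell and less neuronal RNA. Vehicle replicate 1 also held RNA of other tissues: 5 skeletal muscle markers summed to 408 FPKM there and to between 12.5 and 41.8 FPKM in the other libraries, and 9 spinal cord markers to 39.0 FPKM against 10.2 to 12.8 FPKM. The endothelial marker Cldn5 was at 0 counts in every library. Total counts ran from 21384801 to 25618417 per library.

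In bulk tissue, fewer cells of a type and less RNA per cell cannot be told apart. The difference between the libraries of a group was larger than the fitted difference between groups for Gfra3, Ret, Ngfr, Ntrk2 and Gfra1. The next paragraphs give each receptor in turn, with log2 fold changes of cisplatin over vehicle and 95% intervals from edgeR.

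Ntrk2 and Ntrk3 encode the receptor tyrosine kinases TrkB and TrkC. TrkB binds brain-derived neurotrophic factor and marks certain mechanoreceptors, and a truncated form without the kinase is found in glia. Ntrk2 (ENSRNOG00000018839; chromosome 17, 5933729 to 6244676, minus strand, Rnor_6.0) had 14.5 and 11.8 FPKM in vehicle-treated and 16.5 and 12.2 FPKM in cisplatin-treated rats. The groups overlapped, with replicate 2 lower in each. Its log2 fold change was 0.12 (interval -0.48 to 0.73, adjusted p = 0.887 from edgeR), which leaves room for a fold between 0.718 and 1.65. The counts are per gene, so that the full-length and truncated forms of TrkB were not told apart. The exonic length of Ntrk2, 10685 bases, exceeds that of 99.3% of the genes tested, and a correction for gene length moved it to 0.55 (adjusted p = 0.716 from edgeR). Without vehicle replicate 2 it turned to -0.012, and without cisplatin replicate 1 to -0.10. Without vehicle replicate 1, the library with muscle and spinal cord RNA, it was 0.29, and without cisplatin replicate 2 it was 0.33.

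TrkC, the receptor of neurotrophin-3, marks proprioceptors. Ntrk3 (ENSRNOG00000018674; chromosome 1, 139890560 to 140262503, minus strand) was the receptor with the fewest reads, 193 counts in each vehicle-treated library, 139 counts in cisplatin replicate 1 and 186 counts in cisplatin replicate 2. Per length and library this was 2.47 and 3.11 FPKM against 1.75 and 2.53 FPKM. Cisplatin replicate 1 was the lowest library and vehicle replicate 2 the highest, and the groups overlapped. Counting error alone gives 139 counts an exact Poisson interval of 117 to 164, which covers counting only. The log2 fold change was -0.39 (interval -1.16 to 0.38, adjusted p = 0.697 from edgeR). It stayed below 0 with each library left out, from -0.68 to -0.14. Of the markers of proprioceptors and A-fibre mechanoreceptors, 6 were tested and 5 had a fitted log2 fold change above 0, beside 49.1% of all genes tested. The median of the 6 was 0.064. Pvalb, the calcium buffer of proprioceptors, had 485 and 295 FPKM in vehicle-treated and 550 and 397 FPKM in cisplatin-treated rats, so that Ntrk3 and Pvalb were highest in different libraries.

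Ngfr encodes the p75 neurotrophin receptor, a death-domain receptor found on many sensory neurons and on Schwann cells. Sort1 encodes sortilin, a sorting receptor that pairs with p75 to bind the precursors of neurotrophins. Ngfr (ENSRNOG00000005392; chromosome 10, 83389847 to 83408061, minus strand) had 231 and 155 FPKM in vehicle-treated and 244 and 157 FPKM in cisplatin-treated rats. Replicate 2 was lower in both groups, by 0.56 and 0.64 on the log2 scale. Its log2 fold change was 0.049 (interval -0.82 to 0.92, adjusted p = 0.969 from edgeR). The sign changed to -0.015 when libraries were scaled by their total count only, to -0.20 without vehicle replicate 2 and to -0.30 without cisplatin replicate 1.

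Sort1 (ENSRNOG00000031814; chromosome 2, 211078334 to 211156312, plus strand) had 20.8 and 27.2 FPKM in vehicle-treated and 15.3 and 20.6 FPKM in cisplatin-treated rats. The groups did not overlap, although cisplatin replicate 2 lay just under vehicle replicate 1. Its log2 fold change was -0.43 (interval -1.06 to 0.21, adjusted p = 0.609 from edgeR). Without vehicle replicate 1, the library with muscle and spinal cord RNA, it was -0.60 (adjusted p = 0.825 from edgeR), without vehicle replicate 2 it was -0.21, and without cisplatin replicate 1 it was -0.22 (adjusted p = 0.996 from edgeR). The correction for gene length moved it to -0.14 (adjusted p = 0.912 from edgeR), Sort1 being longer than 95.4% of the genes tested. Between the libraries poor in Schwann cell RNA, vehicle replicate 1 and cisplatin replicate 1, the difference in log2 CPM was -0.44, and between the libraries rich in it -0.41. These are single differences without a test. Sort1, Ntrk3 and the Schwann cell markers were all highest in vehicle replicate 2 and lowest in cisplatin replicate 1. Sort1 lay at nearly the same level in the other libraries, where the Schwann cell markers differed. The part of Schwann cell RNA in its level was not tested. The ratio of Sort1 to Ngfr in FPKM was 0.0901 and 0.175 in vehicle-treated and 0.0626 and 0.131 in cisplatin-treated rats, so that the ratio overlapped between the groups.

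**Figure D2:**
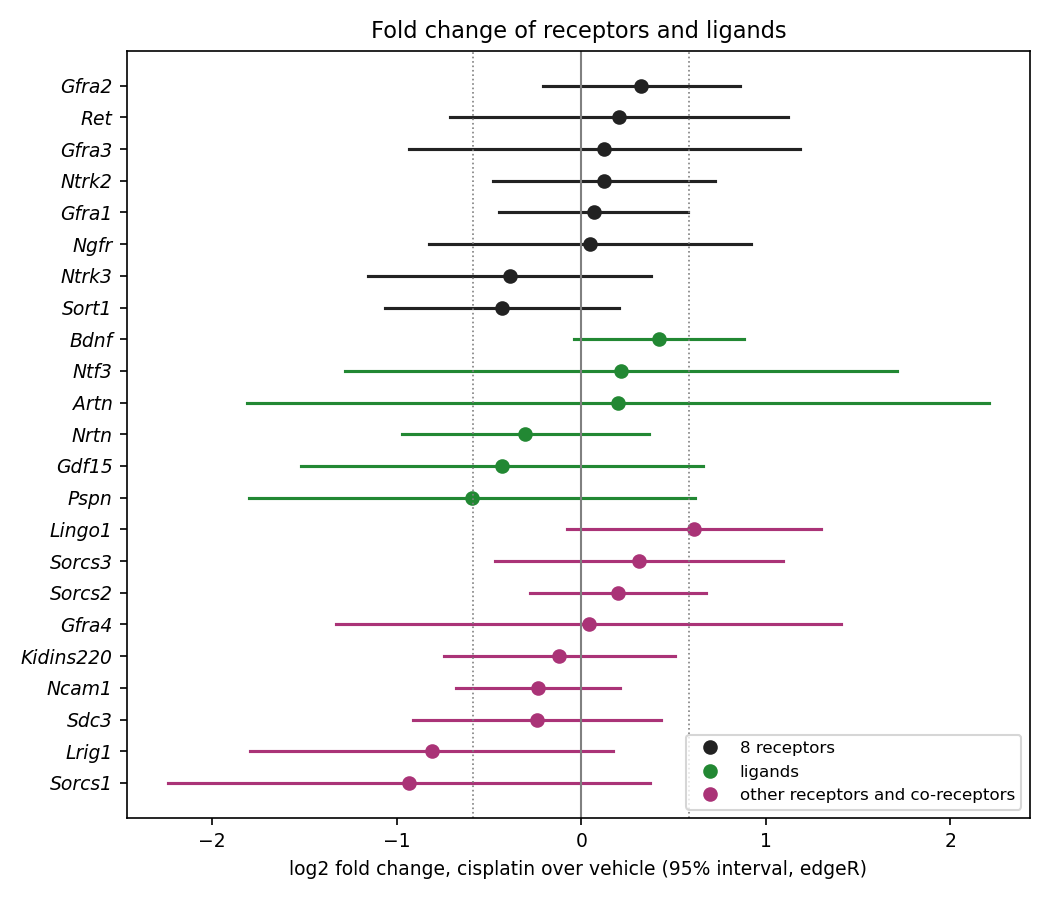
Log2 fold change of cisplatin over vehicle from edgeR for the 8 receptors (black), the 6 tested ligands (green) and the 9 tested other receptors (purple); bars are 95% intervals and dotted lines mark a fold of 1.5 in each direction. Every interval includes 0, and the receptors run from -0.43 for Sort1 to 0.33 for Gfra2.

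Ret is the signalling kinase of all GDNF family complexes and marks nonpeptidergic nociceptors and some mechanoreceptors. Ret (ENSRNOG00000014751; chromosome 4, 150202058 to 150244372, minus strand) had 79.6 and 49.1 FPKM in vehicle-treated and 92.5 and 56.3 FPKM in cisplatin-treated rats. The libraries of a group differed by 0.68 and 0.72 on the log2 scale, whereas the fitted log2 fold change between groups was 0.20 (interval -0.71 to 1.12, adjusted p = 0.876 from edgeR). The groups overlapped. With the correction for gene length the value was 0.44 (adjusted p = 0.828 from edgeR). With 1 library left out it ran from -0.20, without cisplatin replicate 1, to 0.59, without vehicle replicate 1, and it was -0.097 without vehicle replicate 2.

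Gfra1, Gfra2 and Gfra3 encode the co-receptors that prefer GDNF, neurturin and artemin. Gfra1 (ENSRNOG00000017438; chromosome 1, 279207586 to 279277339, minus strand) was the steadiest receptor, with 34.7 and 38.6 FPKM in vehicle-treated and 42.6 and 34.5 FPKM in cisplatin-treated rats. The vehicle-treated values lay between the cisplatin-treated values. Its log2 fold change was 0.067 (interval -0.44 to 0.58, adjusted p = 0.927 from edgeR), which covers folds from 0.735 to 1.49. It turned to -0.0042 without vehicle replicate 1 and to -0.085 without cisplatin replicate 1. Gfra1 was the only receptor whose replicate 2 was higher in one group and lower in the other.

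Gfra2 (ENSRNOG00000014010; chromosome 15, 52557607 to 52648972, plus strand) had 27.4 and 26.3 FPKM in vehicle-treated and 38.7 and 28.9 FPKM in cisplatin-treated rats. Both cisplatin-treated libraries were higher, cisplatin replicate 2 by a small margin and cisplatin replicate 1 by a larger one. The log2 fold change was 0.33 (interval -0.21 to 0.86, adjusted p = 0.635 from edgeR), and it was 0.11 without cisplatin replicate 1 and 0.52 without cisplatin replicate 2. Gfra2 is a marker of nonpeptidergic nociceptors. Among 9 other markers of these neurons 8 had a fitted log2 fold change above 0, beside 49.1% of all genes tested. None of the 9 was called, and their median was 0.43. Of these, 3 lay above in both cisplatin-treated libraries and 6 overlapped, beside 20.6% above over all genes tested. The part of neuronal content in the level of Gfra2 was not tested.

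Gfra3 (ENSRNOG00000020309; chromosome 18, 27491845 to 27520295, minus strand) had the widest spread, 28.3 and 14.6 FPKM in vehicle-treated and 30.7 and 16.2 FPKM in cisplatin-treated rats. Its highest library was 2.10 times its lowest, and replicate 2 was lower by 0.94 and 0.92 on the log2 scale. Against this the log2 fold change was 0.13 (interval -0.94 to 1.19, adjusted p = 0.935 from edgeR), the widest interval of the 8. It turned to -0.40 without cisplatin replicate 1 and -0.27 without vehicle replicate 2, and it rose to 0.68 without vehicle replicate 1. Gfra3 marks peptidergic nociceptors. Calca, which encodes their peptide CGRP, had 718 and 548 FPKM in vehicle-treated and 911 and 747 FPKM in cisplatin-treated rats. Of the 5 peptidergic markers, 2 (Calca and Gal) lay above in both cisplatin-treated libraries and 3 overlapped between the groups, beside 20.6% above over all genes tested, and none was called. Of the 5, 4 had a fitted log2 fold change above 0, beside 49.1% of all genes tested. Their median was 0.43, about that of the nonpeptidergic markers.

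The co-receptors can also be set against Ret within each library, which removes the scaling of the library. The ratio of Gfra3 to Ret was 0.355 and 0.298 in vehicle-treated and 0.332 and 0.289 in cisplatin-treated rats. It was the narrowest of the 3 ratios and overlapped between the groups. The ratio of Gfra1 to Ret was 0.436 and 0.787 against 0.461 and 0.614, and that of Gfra2 to Ret 0.344 and 0.536 against 0.418 and 0.514. All 3 ratios overlapped between the groups.

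**Figure D3:**
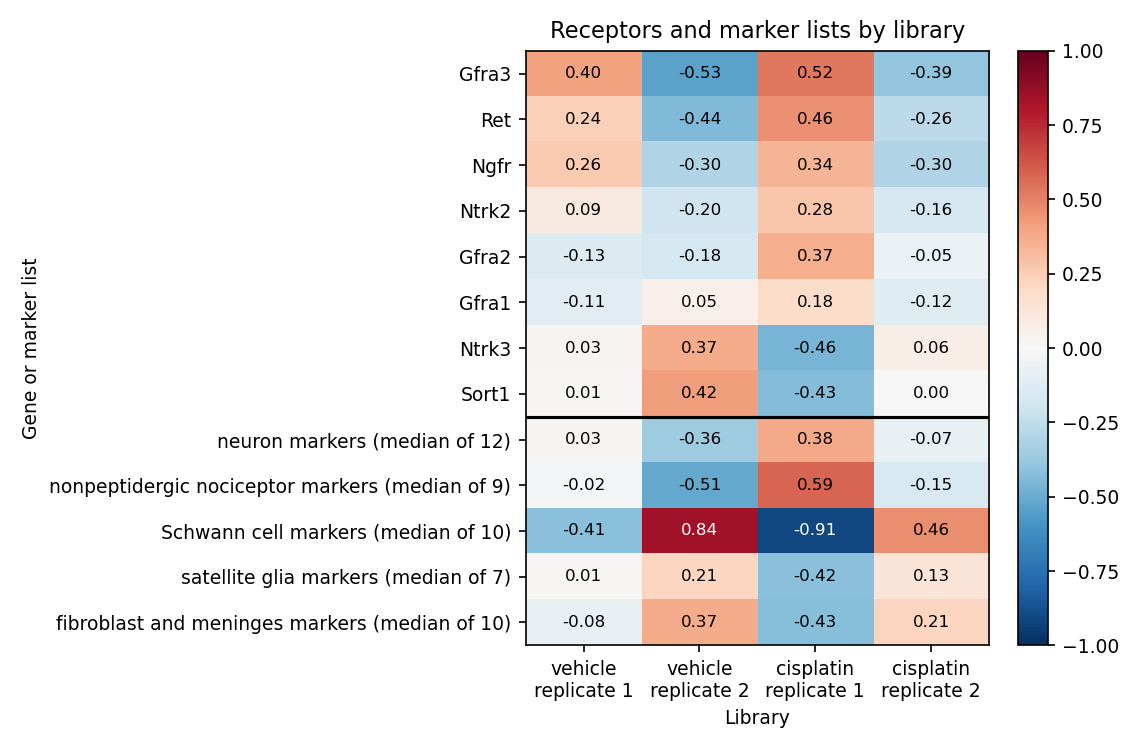
Log2 CPM of the 8 receptors, and the median of 5 marker lists, in each library after subtracting the mean of the 4 libraries; red is above and blue below that mean, and the numbers give the values. Gfra3, Ret and Ngfr are above their mean in replicate 1 and below it in replicate 2 of each group. Sort1 is highest in vehicle replicate 2 (0.42) and lowest in cisplatin replicate 1 (-0.43), as are Ntrk3 (0.37 and -0.46) and the Schwann cell markers (0.84 and -0.91). The satellite glia and the fibroblast and meninges medians have the same highest and lowest libraries.

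The receptors thus formed distinct patterns over the 4 libraries. Ngfr, Ret, Ntrk2, Gfra2 and Gfra3 were lower in replicate 2 than in replicate 1 of both groups, 5 of 8 receptors beside 34.2% of genes tested. Ntrk3 and Sort1 were higher in replicate 2 of both groups, 2 of 8 beside 38.2%. The medians of the neuron markers, centred on their mean, were 0.031 in vehicle replicate 1, -0.36 in vehicle replicate 2, 0.38 in cisplatin replicate 1 and -0.074 in cisplatin replicate 2. Those of the Schwann cell markers were -0.41, 0.84, -0.91 and 0.46. Ret, at 0.24, -0.44, 0.46 and -0.26, had the same libraries high and low as the neuron markers. Ntrk3, at 0.027, 0.37, -0.46 and 0.063, did not, although it is known as a neuronal receptor in the ganglion. What part the mix of cells has in these patterns was not tested.

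When set against the neuron markers, the order of the groups changed for some receptors. Per 1000 FPKM of summed neuron markers, Ngfr had 18.3 and 15.9 FPKM in vehicle-treated and 14.6 and 13.3 FPKM in cisplatin-treated rats, so that both cisplatin-treated libraries were lower. Ntrk2 had 1.15 and 1.20 FPKM against 0.987 and 1.03 FPKM on the same scale, again lower in both. These were 2 of 8 receptors, beside 33.3% of all genes tested that were lower in both on this scale. Sort1, at 1.65 and 2.78 FPKM against 0.912 and 1.74 FPKM, and Gfra2, at 2.17 and 2.69 FPKM against 2.31 and 2.44 FPKM, overlapped between the groups here. Ret overlapped between the groups, with 6.32 and 5.02 FPKM against 5.53 and 4.75 FPKM. Over the neuron markers themselves the median log2 fold change was 0.30, and 11 of 12 were fitted above 0, beside 49.1% of all genes tested. Of the 12, 5 lay above in both cisplatin-treated libraries, beside 20.6% of all genes tested, and none was called. In an edgeR fit scaled to these markers, chosen after seeing the data, the median of all genes moved to -0.26, and the log2 fold changes were -0.22 for Ngfr and -0.14 for Ntrk2 (adjusted p = 0.944 and 0.961 from edgeR), beside that shift of all genes.

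The genes nearest to a receptor over the 4 libraries were found by the root-mean-square distance between centred log2 CPM values. With 4 libraries this measure is met by many genes, so it serves as a description. Sytl3 and Ap3b2 were nearest to Ret, at 0.013 and 0.017, among 9444 genes of at least 10 CPM, of which 208 lay within 0.1. Dock11 and Plcxd2 were nearest to Gfra3, at 0.022 and 0.037, and only 50 genes lay within 0.1 of it. Phospho2 and Pi4ka were nearest to Ntrk2, with 577 genes within 0.1, and Casp2 and Brpf3 to Ntrk3. The nearest genes were Stoml1 and Pcnxl2 for Ngfr, Ppip5k2 and Sun1 for Sort1, Zfp574 and Zfp512b for Gfra1, and Smpdl3a and Ocel1 for Gfra2.

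Promoter sequences of RefSeq (build GRCr8, which is not the build of the count table) held entries for 4 of the 8 receptors, Ret, Gfra1, Gfra3 and Sort1. The 250 bases before the start site are shown for Ret and Gfra3, whose levels followed each other over the libraries, and for Sort1, which followed another pattern. Capitals mark GGGCGG and CCAAT, searched on both strands. The windows lie at chr4:153040557-153040806 on the minus strand for Ret, at chr18:26600226-26600475 on the minus strand for Gfra3 and at chr2:198612245-198612494 on the plus strand for Sort1.
Ret: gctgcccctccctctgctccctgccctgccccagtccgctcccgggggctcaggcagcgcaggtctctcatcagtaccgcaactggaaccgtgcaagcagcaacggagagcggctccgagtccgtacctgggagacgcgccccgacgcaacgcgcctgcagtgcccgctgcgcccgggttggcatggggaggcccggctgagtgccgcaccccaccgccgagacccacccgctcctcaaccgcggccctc
Gfra3: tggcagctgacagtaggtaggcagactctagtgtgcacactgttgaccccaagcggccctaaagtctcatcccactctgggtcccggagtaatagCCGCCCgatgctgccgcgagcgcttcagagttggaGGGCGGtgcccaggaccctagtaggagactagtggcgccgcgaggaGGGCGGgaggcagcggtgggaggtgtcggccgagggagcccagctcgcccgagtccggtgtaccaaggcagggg
Sort1: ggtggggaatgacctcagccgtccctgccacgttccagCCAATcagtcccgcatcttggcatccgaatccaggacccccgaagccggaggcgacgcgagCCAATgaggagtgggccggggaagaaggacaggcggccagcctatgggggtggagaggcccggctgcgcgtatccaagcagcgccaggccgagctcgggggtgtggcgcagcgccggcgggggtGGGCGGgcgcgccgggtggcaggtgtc

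All 3 windows were rich in G and C. Ret had 72.8% G and C, Gfra3 66.0% and Sort1 71.6%, beside a median of 51.2% over 33465 rat promoters of the same length. CG dinucleotides numbered 25 in Ret, 18 in Gfra3 and 25 in Sort1, beside a median of 5. The GC box GGGCGG, found in 30.5% of all promoters, occurred 3 times in Gfra3, 1 time in Sort1 and 1 time in Gfra1, and not in Ret. CCAAT, found in 34%, occurred 2 times in Sort1 alone among these 4 windows. No window held TATAAA (12.9% of promoters), the RUNX core TGTGGT (14.5%) or the homeodomain core TAATTA (4.86%). No marked stretch overlapped another motif. A match is a stretch of letters and not a measured site.

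The ligands of these receptors were mostly scarce in the ganglion. Of 8 ligand genes, 6 passed the filter and none was called. Bdnf, the ligand of TrkB, had 3.77 and 3.88 FPKM in vehicle-treated and 5.31 and 4.995 FPKM in cisplatin-treated rats. Both cisplatin-treated libraries were higher and the libraries of a group lay close together, with a log2 fold change of 0.42 (interval -0.038 to 0.88, adjusted p = 0.537 from edgeR). Nrtn, which encodes neurturin, was the highest ligand at 17.4 and 22.4 FPKM against 13.8 and 18.7 FPKM, and the groups overlapped (log2 fold change -0.30). Pspn, which encodes persephin, had 43 and 30 counts against 35 and 18 counts (log2 fold change -0.59). Gdf15, the stress-induced ligand of Gfral, had 39 and 27 counts against 24 and 29 counts (log2 fold change -0.43). After scaling by library, both genes were lower in both cisplatin-treated libraries. Of the 6 tested ligands, 1 lay above, 2 below and 3 overlapped, beside 20.6% above and 21.2% below over all genes tested. Ntf3, which encodes neurotrophin-3, had 10 and 18 counts against 21 and 16 counts, and Artn, which encodes artemin, 10 and 8 counts against 19 and 4 counts. Ntf4 and Gdnf did not pass the filter. Ntf4 had 8 and 7 counts in vehicle-treated and 0 in both cisplatin-treated libraries, where a count of 0 allows up to 0.118 and 0.128 CPM, and Gdnf had 1 and 0 counts against 3 and 2 counts.

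Among further receptors and co-receptors of both families, 9 of 11 passed the filter and none was called. Sorcs1, a sortilin relative, had 16.7 and 30.2 FPKM in vehicle-treated and 6.71 and 18.0 FPKM in cisplatin-treated rats. The groups overlapped, and cisplatin replicate 1 was the lowest library (log2 fold change -0.93, interval -2.24 to 0.37). Lrig1, which encodes a membrane protein known to restrain Ret, had 10.4 and 17.1 FPKM against 5.46 and 10.3 FPKM. Both cisplatin-treated libraries were lower, by a narrow margin in 1 of them, with a log2 fold change of -0.81 (interval -1.80 to 0.17, adjusted p = 0.558 from edgeR). Lingo1, a partner of p75 in receptors for myelin inhibitors, had 21.9 and 18.0 FPKM against 37.6 and 23.6 FPKM. Both cisplatin-treated libraries were higher (log2 fold change 0.61, interval -0.078 to 1.30, adjusted p = 0.543 from edgeR). Sorcs1, Lrig1 and Sdc3 were, like Sort1, Ntrk3 and the Schwann cell markers, highest in vehicle replicate 2 and lowest in cisplatin replicate 1. The share of all genes with this order was not counted. The log2 fold changes of the others were 0.31 for Sorcs3, 0.20 for Sorcs2, 0.040 for Gfra4, -0.12 for Kidins220, -0.23 for Ncam1 and -0.24 for Sdc3, whose groups overlapped except for Ncam1. Gfral had 2 and 1 counts against 0 and 1 counts and did not pass the filter. Sorl1 was not analysed here.

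Adaptors and kinases downstream of the receptors gave 44 tested rows, of which none was called. At an unadjusted p under 0.05 there were 4 of the 44, beside 9.43% of all genes tested. Their median log2 fold change over the 44 rows was -0.081. The 3 smallest p belonged to Rapgef1, Cbl and a Grb2 row. Rapgef1, an exchange factor for the GTPase Rap1, had 10.1 and 8.04 FPKM in vehicle-treated and 5.66 and 4.74 FPKM in cisplatin-treated rats (log2 fold change -0.80, interval -1.35 to -0.26, adjusted p = 0.522 from edgeR). Cbl, a ubiquitin ligase that sends Trk and Ret receptors for degradation, had 180 and 86 counts against 47 and 62 counts (log2 fold change -1.37, adjusted p = 0.522 from edgeR). Neither passed the threshold. Over the 44 rows, 13 lay below and 9 above in both cisplatin-treated libraries and 22 overlapped, beside 21.2% below and 20.6% above over all genes. The symbol Grb2 stood on 2 rows, and the row with the small p held 4 counts in each vehicle-treated library, against 27 counts in cisplatin replicate 1 and 11 counts in cisplatin replicate 2. The main Grb2 row had 1923 and 1486 counts against 1836 and 1567 counts (log2 fold change -0.13), so that the smaller row is uncertain as a copy that can share reads.

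Genes that respond to receptor signalling comprised 18 tested genes, none called and 3 at an unadjusted p under 0.05, with a median log2 fold change of -0.10. Beside the 3 at that p, which were Spred1, Dusp4 and Spred2, 9.43% of all genes tested had one. Spred1, an inhibitor of Ras signalling to MAP kinase, had 9.74 and 7.71 FPKM against 5.09 and 4.81 FPKM (log2 fold change -0.82, adjusted p = 0.522 from edgeR). Dusp4, a MAP kinase phosphatase, had 5.05 and 4.43 FPKM against 3.40 and 2.75 FPKM (log2 fold change -0.63, adjusted p = 0.522 from edgeR), and Spred2 had 8.75 and 5.84 FPKM against 4.22 and 4.72 FPKM (log2 fold change -0.71, adjusted p = 0.528 from edgeR). These genes are named for their small p, so their separation is no further result. Over the 18 genes, 4 lay below and 1 above in both cisplatin-treated libraries and 13 overlapped, beside 21.2% below and 20.6% above over all genes. Other feedback genes of the list had log2 fold changes of 0.33 for Dusp5, -0.019 for Spry2, -0.39 for Dusp6 and -0.52 for Spry1, with overlapping groups. Spry4 had 7.69 and 8.05 FPKM against 5.55 and 7.06 FPKM, lower in both cisplatin-treated libraries (log2 fold change -0.33, adjusted p = 0.629 from edgeR).

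Transcription factors that set receptor expression in sensory neurons gave 10 tested rows, none called and none at an unadjusted p under 0.05, with a median log2 fold change of -0.097. Isl1, a homeodomain factor of sensory neurons, had 21.9 and 16.4 FPKM in vehicle-treated and 29.4 and 21.9 FPKM in cisplatin-treated rats. Cisplatin replicate 2 lay just above vehicle replicate 1 (log2 fold change 0.42, adjusted p = 0.604 from edgeR). Maf, a factor of mechanoreceptors, had 35.0 and 58.0 FPKM against 17.5 and 38.3 FPKM, and Cux2, a homeobox factor, had 173 and 74 counts against 107 and 74 counts, with overlapping groups in each. The log2 fold change of Maf was -0.74 and that of Cux2 -0.54.

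**Figure D4:**
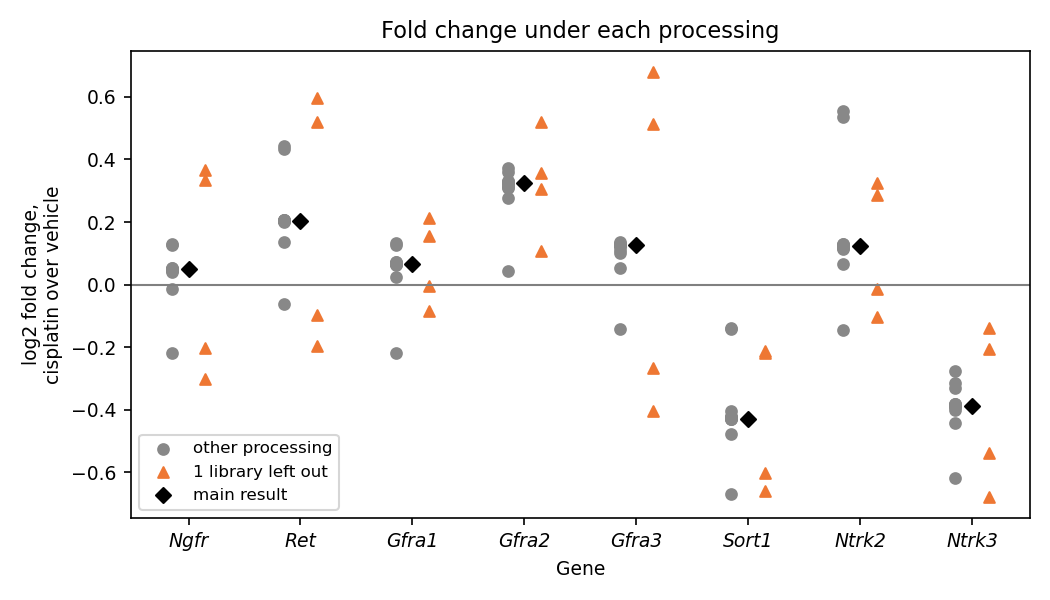
Log2 fold change of each receptor in the main result (black diamonds), with 1 library left out (orange triangles) and under the other processing alternatives (grey circles). Gfra2 stays above 0 and Ntrk3 and Sort1 below 0 throughout, whereas Ngfr, Ret, Gfra1, Gfra3 and Ntrk2 fall on both sides of 0.

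An exact permutation test (two-sided) of 1 gene cannot go below p = 0.333 with 2 libraries in each group. The p-values above rest on a spread modelled across genes and measure only the spread between these libraries.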

How the data were processed

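Clean paired-end reads from 4 libraries had been mapped by the authors with HISAT2 against Rnor_6.0, the Ensembl assembly of the rat, and StringTie was used to assemble transcripts. Tools named in the submitters' processing notes include featureCounts; its role and the strand setting are not given in the sources used here. The authors deposited raw counts per gene, without normalisation. They also deposited FPKM values, which here equalled the count divided by exonic length and by 1 constant per library (20305200 to 25979379, not the total count).

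Protein-coding genes kept by edgeR's filterByExpr (14719) were normalised with TMM (factors 0.938 to 1.10) and tested without a block by glmQLFit and glmQLFTest of edgeR 4.0.16 in R 4.3.3. Calls needed a fold of at least 1.5 and an adjusted p (Benjamini-Hochberg) under 0.05. Intervals are 95% from the fitted value, its standard error and the moderated degrees of freedom. Alternatives were DESeq2 1.42.0 on all protein-coding genes with any count, other scalings, filters and biotypes, a lowess correction for gene length (span 0.3), limma 3.58.1 on log2(FPKM + 1) and log2(FPKM + 0.1), the replicate block, and each library left out. The tests were also run on simulated counts with 200 changed genes. Those changes were larger than the ones fitted for the receptors, and the simulated spread was smaller than that of the main fit. That run therefore does not show how well changes of the receptors' size would be found. Centred values are log2 CPM (prior count 2). Limits for a count of 0 use 3 counts and cover counting error only, since reads carried no molecular identifiers.

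Groups and replicate numbers came from the sample titles. The members and lists were chosen with earlier results of these data known. Genes were named if they were receptors, ligands or co-receptors, were among the 3 smallest p of another list, were called, or were nearest in pattern; Pvalb, Calca, Gal, the feedback genes past the 3 smallest p and the main Grb2 row, and the glial and macrophage genes of the closing section, were chosen after their values were seen. Of 8 ligands and 11 further receptors by symbol, 8 and 10 matched a row. All library columns of both tables were used.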

Additional observations from a re-analysis of the deposited data

How the results depend on the processing

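None of the 8 receptors was called under any of 16 alternatives. Gfra2, Ntrk3 and Sort1 kept their direction in all 16, and the others changed sign in 3 (4 for Ngfr). With library size alone Ngfr was at -0.015. Scaled to the neuron markers, an alternative chosen after seeing the data in which the median of all genes fell to -0.26, Ntrk2 was at -0.14, Ngfr at -0.22, Ret at -0.062, Gfra1 at -0.22 and Gfra3 at -0.14. With 1 library left out, where edgeR takes the lone library to vary like the other group, log2 fold changes ran from -0.10 to 0.33 for Ntrk2, -0.68 to -0.14 for Ntrk3, -0.30 to 0.36 for Ngfr, -0.20 to 0.59 for Ret, -0.085 to 0.21 for Gfra1, 0.11 to 0.52 for Gfra2, -0.40 to 0.68 for Gfra3 and -0.66 to -0.21 for Sort1.

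The titles number the rats 1 and 2 in each group, and the sources used here do not say that a number marks a shared litter, batch or day. Across 14719 genes the differences between replicate 2 and replicate 1 correlated between the groups (Pearson's r = 0.444; genes are not independent replicates). With the replicate block, edgeR called 494 genes higher and 1038 lower, against 0 and 1 without it, and none of the 8 receptors. In the block fit 2455 of 14719 genes (16.7%) had an adjusted p under 0.05, beside 1 of the 8 receptors. That receptor was Sort1, at -0.43 (edgeR, adjusted p = 0.0241), short of the fold of 1.5. With the block combined with the correction for gene length, Ntrk2 was at 0.53 and Ret at 0.43 (adjusted p = 0.0228 and 0.0393 from edgeR). Both were also short of that fold, while Sort1 was at -0.14 (adjusted p = 0.44 from edgeR). This combined fit called 254 genes higher and 709 lower. The share of all genes it held at an adjusted p under 0.05 alone was not counted, so Ntrk2 and Ret stand without that background. At an unadjusted p under 0.05 it held 3953 of 14719 genes and 3 of the 8 receptors.

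All genes called higher and lower numbered 45 and 81 with DESeq2, 2 and 2 without the filter, 1 and 1 where every library held at least 10 counts, 2 and 2 with limma on log2(FPKM + 1), 1 and 1 on log2(FPKM + 0.1), 0 and 0 scaled to the neuron markers, and from 0 to 4 and from 0 to 3 with 1 library left out. The block called 0 of 6 ligands, 2 of 9 other receptors, 4 of 44 adaptors and kinases, 3 of 18 response genes and 1 of 10 regulators. Over all genes tested it called 3.36% higher and 7.05% lower. The block with the length correction called 1, 3, 3, 2 and 1 in these lists, beside 254 higher and 709 lower among 14719 genes. The median of the ligands was -0.30 where every library held at least 10 counts, -0.26 with the length correction, -0.34 with the block as well and -0.35 scaled to the neuron markers. The median of the adaptors and kinases was -0.14 with library size alone, -0.00060 with the length correction, 0.0035 with the block as well and -0.32 scaled to the neuron markers, where the other receptors were at -0.39 and the response genes at -0.35. With 1 library left out, medians ran from -0.29 to 0.057 for ligands, -0.19 to 0.085 for other receptors, -0.10 to 0.011 for adaptors and kinases, -0.24 to 0.015 for response genes and -0.32 to 0.23 for the regulators.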

Other observations

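Macrophage markers, which the study followed by staining, are given here as values: 10 markers summed to 73.8 and 80.1 FPKM in vehicle-treated and 101 and 108 FPKM in cisplatin-treated rats, and Lyz2 alone had 57.8 and 62.3 FPKM against 85.6 and 90.0 FPKM. Of the 10, 2 were above and 4 below in both cisplatin-treated libraries, beside 20.6% above and 21.2% below over all genes tested. None was called, and the median log2 fold change was -0.012. Ptprc, which encodes CD45, had 0.55 and 0.53 FPKM against 0.46 and 0.48 FPKM. Kcnj10, the inward rectifier channel of satellite glia, had 13.6 and 8.57 FPKM against 5.45 and 4.84 FPKM (log2 fold change -1.11, adjusted p = 0.522 from edgeR). Its highest library was vehicle replicate 1, which also held spinal cord RNA. The part of that RNA in the level of Kcnj10 was not tested. Fabp7 had 45.0 and 30.0 FPKM against 65.4 and 44.7 FPKM, and its groups overlapped. Of 7 satellite glia markers, 1 (Kcnj10) lay below in both cisplatin-treated libraries and 6 overlapped, beside 21.2% below over all genes tested. None of the 7 was called, 2 were fitted above 0, and their median log2 fold change was -0.17.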
